A study of Mus musculus with 40 samples.

Results

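Gdf15 encodes growth differentiation factor 15, a distant member of the TGF-beta superfamily that stressed cells secrete into the blood. It was taken as the single row of that name among the 18024 genes measured in 40 mouse libraries (ENSMUSG00000038508.7, build GRCm38, chromosome 8, 70629393 to 70632456, minus strand). The libraries came from pancreas, kidney, ovary, heart and small intestine of C57BL/6j mice, 60 days after birth and 24 hours after acute activation of p53. Each tissue gave 3 libraries of Tg mice (Mdm2+/- Cag-CreERTg), which retain Mdm2, and 5 of FMTg mice (Mdm2FM/- Cag-CreERTg), which lost it. Both genotypes carried 1 Mdm2-null allele and the CreER transgene driven by the Cag promoter, which is active in most cell types. No library came from a mouse with both Mdm2 copies or without the transgene, and the labels name neither the inducing agent nor the part of Mdm2 that is removed. The same 3 Tg mice gave all 15 Tg libraries and 10 FMTg mice gave the 25 FMTg libraries, so libraries of different tissues often share an animal. The number in each sample label was taken as the mouse, and the FMTg mice are called A to J in rising order of that number.

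Gdf15 protein is made as a precursor that dimerises, is cut by proprotein convertases and leaves the cell. It acts in the hindbrain through the receptor Gfral, which signals with the kinase Ret, and reduces food intake. The gene is a known direct target of p53, and it is also switched on by Atf4 and Ddit3 in the integrated stress response, a programme that cells use when translation or the endoplasmic reticulum is disturbed. Its RNA therefore reads p53 activity together with other stresses, and the comparison asks how far it moved in each tissue once Mdm2, the ubiquitin ligase that restrains p53, was gone.

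GENCODE M21 gives Gdf15 2 transcripts with the same coding sequence of 909 bases for 303 residues and separate start sites at 70632456 and 70632095. No other annotated gene overlaps it, so reads on either strand at this locus have 1 annotated source. The sequence before the outer start is shown because p53 and stress factors are known to act near the starts of their targets. RefSeq gives it for GRCm38.p6 at chr8:70632471-70632706 on the minus strand, and capitals mark the letters CATG, a core often found in p53 binding sites.

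Gdf15 upstream: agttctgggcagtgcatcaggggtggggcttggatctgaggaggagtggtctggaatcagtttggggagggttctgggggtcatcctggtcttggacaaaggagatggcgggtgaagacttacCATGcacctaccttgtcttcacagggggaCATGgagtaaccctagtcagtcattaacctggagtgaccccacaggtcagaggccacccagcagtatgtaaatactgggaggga

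CATG occurred at 2 places in these 236 bases, and 61.0% of the 32544 distinct RefSeq windows of 250 bases before to 50 bases after a start hold it on either strand. The full p53 decamer, 3 purines, C, 2 letters A or T, G and 3 pyrimidines, was in neither Gdf15 window and was in 8.36% of all windows. Likewise absent from both windows on either strand were TGATGNAA, a composite element bound by Atf4 (3.91% of windows), GGGCGG (35.9%), TATAAA (13.6%), TGANTCA (7.79%) and TGACGTCA (1.80%). CACGTG was in the window of the inner start (7.17% of windows). These are matches of letters in short windows and do not show where any factor bound.

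Gdf15 was represented by 19 to 1299 reads per library, out of library totals of 7155461 to 29031526 reads. Levels are given below as reads divided by the authors' size factor for the library, called normalised reads, and differences as FMTg minus Tg on the deposited log2 scale. In bulk tissue a higher level can mean more RNA per cell or more cells that make it, and these cannot be told apart. The FMTg libraries of replicates 4 and 5 came from mice A to F, whose numbers are lower than those of mice G to J, and they held the most genes without reads in every tissue, for example 6020 and 4087 in the pancreas against 1559 to 2618. Values without them are given where they matter. The markers that define each tissue were present in it, but some libraries also held markers of another tissue. Kidney tubule markers held 0.648% of reads in pancreas FMTg replicate 3, and acinar markers 1.39% in kidney FMTg replicate 3. Cardiomyocyte markers held 1.25% in small intestine Tg replicate 1, and intestinal epithelium markers 0.943% in ovary FMTg replicate 3. The part of such material in the Gdf15 values was not tested. The gene-level count of Mdm2 (ENSMUSG00000020184.15, chromosome 10, 117688875 to 117710758) was higher in every FMTg library than in every Tg library of each tissue, for example 3230 to 5696 against 918 to 1040 normalised reads in the kidney. Mdm2 is itself a p53 target and the count may take in exons outside the deletion, so it does not check the loss of the gene. Trp53 (ENSMUSG00000059552.13), the gene of p53 itself, differed by -0.26 to 0.35 (log2) and was called in no tissue by limma (adjusted p 0.564 to 0.990).

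Gdf15 was higher in FMTg than in Tg mice in pancreas, kidney, heart and small intestine, by 4.32 to 7.19 times in mean normalised reads, and there every FMTg library lay above every Tg library. The ovary stood lowest, with a ratio of 1.59 and overlapping groups.

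In the pancreas the 3 Tg libraries had 187, 111 and 392 normalised reads of Gdf15, in the order of replicates 1 to 3. The 5 FMTg libraries had 1044, 731, 536, 1651 and 1008. The groups did not overlap, but the highest Tg library reached 392 against 536 for the lowest FMTg library. The log2 difference was 2.16 ± 0.44 (SE, n = 3 and 5), and it missed the threshold in limma over 15262 genes (adjusted p = 0.0941). Erythroid markers stood higher in FMTg pancreas: 4 of 7 were higher in every FMTg library, against 4.68% of all genes tested. Limma called 2 of the 7 higher, against 0.419% of all genes tested. An unadjusted limma p under 0.05 was reached by 6 of the 7, and by 1285 of the 15262 genes tested. Voom called 1 of the 7, and 52 of all genes tested. The summed level of the erythroid markers was 1198 to 1691 normalised reads in Tg and 3869 to 9138 in FMTg libraries. The part of these markers in the Gdf15 difference was not tested.

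In the kidney Gdf15 stood at 103, 102 and 86.6 normalised reads in Tg libraries, the tightest group of all. The FMTg libraries had 374, 916, 374, 708 and 662, and even the lowest lay far above the highest Tg library. Gdf15 rose by 2.48 ± 0.29 (log2, n = 3 and 5; limma adjusted p = 0.0044), and it ranked 25 of 15415 genes by size of rise. This was the only tissue in which Gdf15 passed the threshold over all genes in the tissue's own fit.

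In the ovary the Tg libraries had 71.6, 29.6 and 50.2 normalised reads of Gdf15. The FMTg libraries had 54.5, 103, 99.9, 76.3 and 66.9, and 3 of the 5 lay above all Tg libraries. The difference of 0.65 ± 0.34 (log2, n = 3 and 5) was not called by limma (adjusted p = 0.823). The highest Tg library, replicate 1, also carried 18.1% of its reads in 10 pancreatic acinar markers, against 0.346% and 0.096% in the other two and at most 3.76% in FMTg libraries. Scaled by total reads instead of size factors, its Gdf15 was 5.09 RPM (reads scaled to the library's total) and all 5 FMTg libraries, at 5.56 to 10.3, lay above the Tg libraries, with a ratio of means of 1.73. Adipocyte markers stood higher in FMTg ovaries, with sums of 2935 to 5155 normalised reads in Tg and 5403 to 60584 in FMTg libraries. Of 8 tested, 4 were higher in every FMTg library, against 3.43% of all genes tested in the ovary. Theca and luteal markers stood lower, with 28706 to 53944 against 21359 to 25279, and 3 of 7 were lower in every FMTg library. The share of all genes lower in every FMTg library was not counted. None of either list was called by limma, and their part in the Gdf15 values was not tested. Without Tg replicate 1 the log2 difference was 0.91, and without Tg replicate 2 it was 0.35.

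In the heart Gdf15 had 70.3, 105 and 62.4 normalised reads in Tg libraries. The FMTg libraries had 339, 904, 308, 291 and 162. The 904 of FMTg replicate 2 stood far above the other 4 libraries, yet all 5 exceeded the highest Tg library. The log2 difference was 2.05 ± 0.48 (n = 3 and 5; limma adjusted p = 0.641), and 1.70 without that library. Macrophage markers also stood higher in FMTg hearts: 4 of 10 were higher in every FMTg library, against 3.42% of all genes tested, and none was called. Their summed level was 6598 to 8936 normalised reads in Tg and 11195 to 28563 in FMTg libraries. Fibroblast markers summed to 20769.8 to 26062 in Tg and 30177 to 137947 in FMTg libraries. Of these 6 markers 1 was higher in every FMTg library, beside the same 3.42% of all genes, and none was called. FMTg replicate 2 had the highest sum of both lists, and of endothelial (57535), neutrophil (16988) and erythroid markers (287338). Tg libraries reached 26338, 5776 and 219692 for these, in the same order. Of 6 neutrophil markers tested 0 had a higher mean in FMTg hearts (median log2 difference -1.44). Cardiomyocyte markers held 4.84% of reads in FMTg replicate 2 against at least 9.17% in Tg libraries. In the other FMTg libraries they held from 5.24% (replicate 4) to 10.5% (replicate 1). The part of these cells in the Gdf15 difference was not tested.

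In the small intestine Gdf15 was at its lowest in Tg mice, with 45.5, 19.0 and 45.7 normalised reads. The FMTg libraries had 105, 189.9, 139, 549 and 338, all above the Tg libraries. The difference of 2.49 ± 0.54 (log2, n = 3 and 5) ranked 6 of 16104 genes by size of rise, but limma did not call it (adjusted p = 0.917). The 2 highest values came from the low-numbered mice, and without them the difference was 1.86.

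**Figure D1:**
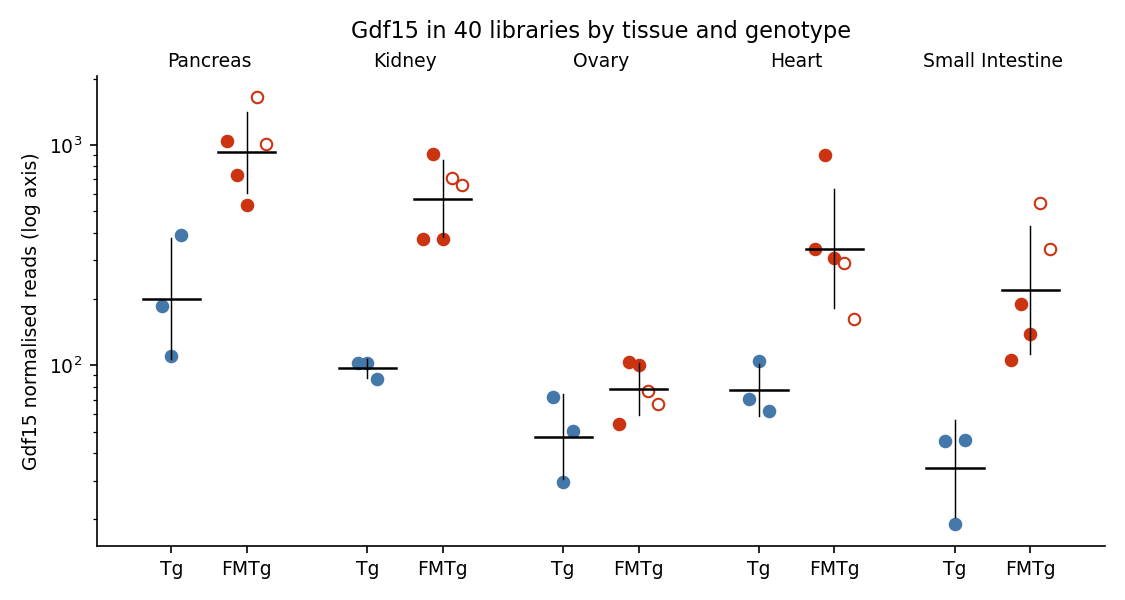
Gdf15 normalised reads (log axis) in each library, by tissue and genotype; open circles are FMTg replicates 4 and 5, horizontal bars are means of the log2 values and vertical bars their SD (n = 3 Tg, 5 FMTg). FMTg libraries lie above all Tg libraries in pancreas, kidney, heart and small intestine, and 3 of 5 do in the ovary.

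These calls have to be read against how much each tissue allowed. Genes called higher by limma made up 0.419% of those tested in pancreas, 0.603% in kidney, 0.0190% in heart and 0% in both ovary and small intestine. Genes called lower made up 0.0262% in pancreas, 0.0130% in kidney and 0% elsewhere. In ovary and small intestine limma gave 1049 and 388 genes at an unadjusted p under 0.05 without a call, and limma's voom on the recovered reads also called 0. Genes whose FMTg libraries all lay above all Tg libraries, as Gdf15 did in 4 tissues, were 4.68% of those tested in pancreas, 4.17% in kidney, 3.43% in ovary, 3.42% in heart and 1.69% in small intestine. Taken alone, Gdf15 gave an exact permutation p of 0.0179 in each of pancreas, kidney, heart and small intestine and 0.107 in the ovary (two-sided, 56 divisions, of which 0.0179 is the smallest p). Adjusted over the 5 tissues these exact p values were 0.0223 and 0.107. The exact test depended on scaling. Scaled by total reads, the unadjusted exact permutation p was 0.0357 in both ovary and heart and 0.0179 in pancreas, kidney and small intestine. Without the low-numbered mice 3 libraries faced 3, and no exact p could fall below 0.1.

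All 40 libraries were also fitted together, with the mouse as random block. Averaged over the 5 tissues, Gdf15 rose by 2.00 ± 0.28 (log2; limma adjusted p = 2.38e-05). By size this was rank 16 of 16185 genes, of which 0.686% were called higher and 0.0432% lower. The joint estimates were 2.61 for kidney, 2.43 for small intestine, 2.17 for heart, 2.03 for pancreas and 0.74 for ovary. The F test of a difference between tissues did not pass for Gdf15 (limma adjusted p = 0.486), and it called 0.192% of all genes.

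Of the 10 pairs of tissues, 2 differed in the Gdf15 rise when adjusted over the pairs, and both involved the ovary. The kidney exceeded the ovary by 1.86 ± 0.59 (limma p adjusted over 10 pairs = 0.0315), and the small intestine stood above the ovary, with ovary minus small intestine at -1.69 ± 0.59 (0.0337). Neither passed when adjusted over all genes, and neither held without the low-numbered mice (1.58 and -1.13, limma p adjusted over 10 pairs 0.097 and 0.244) or without ovary Tg replicate 1 (1.61 and -1.43, both 0.148). Pancreas minus ovary was 1.28 with a 95% interval of 0.08 to 2.49 (limma p adjusted over 10 pairs = 0.0918), and ovary minus heart was -1.43 with -2.62 to -0.24 (0.067). The 6 pairs among the other 4 tissues had limma p values adjusted over the pairs of at least 0.667. Their intervals stayed wide, from -1.78 to 0.62 for pancreas minus kidney and from -1.02 to 1.36 for kidney minus small intestine, so differences of more than 1 on the log2 scale lie within them.

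In order of mean log2 level, Gdf15 was highest in pancreas FMTg mice (9.87 ± 0.60, SD), followed by kidney (9.17 ± 0.57), heart (8.43 ± 0.88) and small intestine FMTg mice (7.83 ± 0.94). Next came pancreas Tg (7.70 ± 0.89) and kidney Tg (6.69 ± 0.13), then ovary FMTg (6.40 ± 0.36), heart Tg (6.39 ± 0.37), ovary Tg (5.75 ± 0.57) and small intestine Tg mice (5.34 ± 0.61). A step between neighbours exceeded the larger SD of the pair from pancreas to kidney FMTg, from pancreas to kidney Tg and from heart Tg to ovary Tg, and the other neighbours did not differ beyond their spread. The top of the order depends on scaling. Scaled by total reads, kidney FMTg mice had 44.4 ± 17.9 RPM and pancreas FMTg mice 32.3 ± 5.36 RPM, while the remaining 8 groups kept their ranks.

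Among Tg mice, where the same 3 animals gave every tissue, neighbouring tissues were compared with mouse as a fixed block. Pancreas minus kidney was 1.01 ± 0.42 (log2; limma adjusted p = 0.0588), and it passed without Tg replicate 2 (1.46, limma adjusted p = 0.0243). Kidney minus heart was 0.30 (0.572), heart minus ovary 0.64 (0.218) and ovary minus small intestine 0.41 (0.425), none called by limma. Between these tissues 57.2%, 52.9%, 57.3% and 57.0% of all genes were called, in the same order. These pairs are neighbours in the order of Gdf15 itself, so its steps are small by choice of the pairs and are not to be read against those shares. Tissues further apart in the order were not compared.

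Scaled by size factors, the highest FMTg values of the 5 tissues came from 2 mice. Mouse H, which gave all 5 tissues, had the highest FMTg value in kidney, ovary and heart, at 3.16, 1.03 and 3.45 above the Tg mean of the tissue (log2). Mouse C, which gave pancreas and small intestine, was highest in both, at 2.99 and 3.78. Its pancreas library had the 6020 genes without reads, and scaled by total reads mouse I was highest in the pancreas, with 38.2 against 37.5 RPM. Mouse J also gave all 5 tissues and ranged from 0.98 in the ovary to 1.91 in the heart, and mouse G from 0.17 in the ovary to 2.05 in the heart. Each of the 3 mice that gave the ovary and another tissue had its lowest Gdf15 difference in the ovary. The remaining ovary libraries came from mice D and F, at 0.62 and 0.44, which gave no other tissue.

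**Figure D2:**
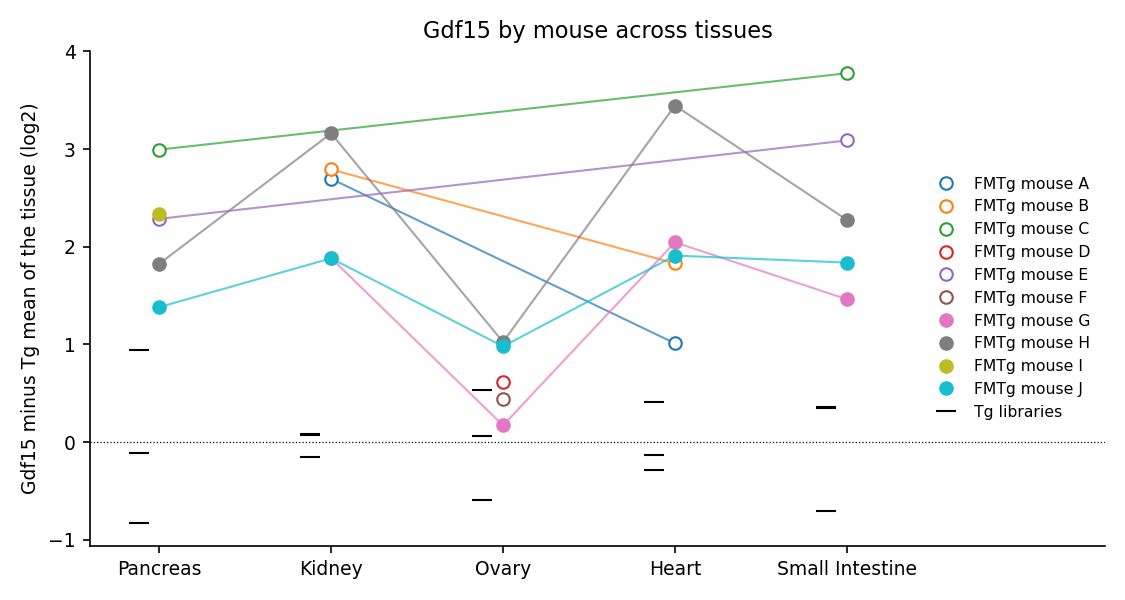
Gdf15 in each FMTg library minus the Tg mean of its tissue (log2), joined by mouse; open circles are low-numbered mice and short bars the 3 Tg libraries. On this scale mouse H is highest in kidney, ovary and heart and mouse C in pancreas and small intestine, and mice G, H and J dip in the ovary.

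Gdf15 was next set beside other known p53 targets. Their lists were chosen with earlier results of these data known. The counts, medians and the place of Gdf15 therefore describe the listed genes and are no independent measure of p53 output. Of 57 listed targets 56 were in the table and tested in all tissues, Gdf15 not among them. Limma called 17 of these 56 higher in pancreas, 25 in kidney, 3 in heart, 0 in both ovary and small intestine, and none lower. Of all genes tested it called 0.419% higher in pancreas, 0.603% in kidney, 0.0190% in heart and 0% in both ovary and small intestine. The median differences of the 56 were 0.74 in pancreas, 0.56 in kidney, 0.24 in ovary, 0.54 in heart and 0.41 in small intestine (log2). The median of all genes lay between -0.05 and -0.01. In ovary and small intestine 18 and 26 of the 56 reached an unadjusted limma p under 0.05. So did 1049 of 16486 and 388 of 16104 genes tested there, and voom called 0. Without the low-numbered mice limma called 19 in pancreas, 25 in kidney, 1 in heart and 0 in both ovary and small intestine.

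The difference of Gdf15 exceeded that of 49 targets in both pancreas and kidney, 40 in ovary, 52 in heart and all 56 in small intestine. Its place among them was therefore lowest in the ovary, where 16 targets lay above it. The targets above it in the pancreas were Psrc1, Gtse1, Trp53inp1, Pidd1, Bbc3, Eda2r and Phlda3, and in the kidney Gtse1, Psrc1, Zfp365, Eda2r, Cdkn1a, Lif and Phlda3. In the heart they were Gtse1, Eda2r, Psrc1 and Phlda3. Gtse1 and Psrc1, which bind microtubules, were at 4.91 and 3.79 in the kidney (limma adjusted p = 2.77e-05 and 2.47e-05).

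**Figure D3:**
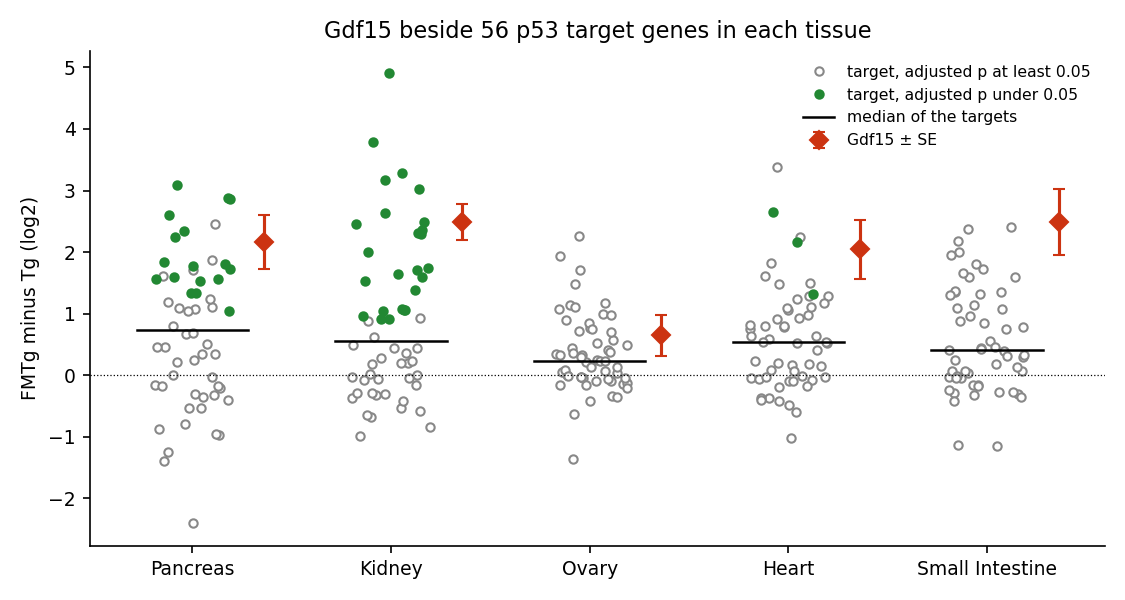
FMTg minus Tg (log2) of 56 p53 targets in each tissue (circles, filled where the limma adjusted p is under 0.05, with their median as a bar) and of Gdf15 (diamonds, ± SE). Gdf15 lies above 49, 49, 40, 52 and 56 targets from left to right.

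Targets of different roles stood apart, where limma called 0.686% of all genes higher on the mean over tissues. In cell cycle arrest 7 of 12 rose on the mean over tissues by limma, with a median of 1.31, among them Cdkn1a, the p21 inhibitor of cyclin-dependent kinases (1.83 ± 0.24, limma adjusted p = 5.81e-06), and Sesn2, a stress sensor that restrains mTORC1 (1.37 ± 0.19, limma adjusted p = 1.26e-05). In apoptosis 10 of 15 rose, with a median of 1.00, including the death receptor Eda2r (2.30 ± 0.12, limma adjusted p = 4.21e-15) and Bax, which permeabilises mitochondria (1.00 ± 0.16, limma adjusted p = 0.000317). In feedback 2 of 6 rose, Mdm2 (1.25 ± 0.15) and Trp53inp1 (1.65 ± 0.13), a cofactor of p53. Repair and metabolism had 2 of 12, the polymerase Polk (1.32) and the endonuclease Ercc5 (0.91), and a median of -0.07.

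Gdf15 is a secreted product, and 11 other secreted p53 targets were tested. Their median was -0.09 on the mean over tissues, and Lif was the sole one called by limma. Lif, a cytokine of the interleukin-6 family, rose by 2.63 ± 0.30 in the kidney (limma adjusted p = 0.00372) and by 1.43 ± 0.27 on the mean (limma adjusted p = 0.00263). Ccl2, a chemokine that attracts monocytes, was at -0.29 ± 0.39 and Igfbp3, which binds insulin-like growth factors, at 0.16 ± 0.19, neither called by limma. Over the 5 tissues 9 of the 55 tests of secreted targets (16.4%) had an unadjusted limma p under 0.05, against 6.33% of the tests of all genes. Voom called 0 of the secreted targets.

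Whether mice with more p53 output also had more Gdf15 was examined with a score, the mean over the 56 targets of each library's value minus a reference mean of its tissue. Set against the Tg mean, the 5 FMTg libraries of a tissue scored 0.34 to 0.98 in pancreas, 0.79 to 1.18 in kidney, 0.14 to 0.60 in ovary, 0.41 to 1.18 in heart and 0.42 to 0.75 in small intestine. The ovary was lowest for the score as it was for Gdf15. The highest scores in kidney and heart, both 1.18, came from mouse H, which also had the most Gdf15 there. In the pancreas mouse C had the lowest score, 0.34, and the most Gdf15 by size factors, while mouse I, highest in Gdf15 by total reads, had the highest score, 0.98. Over the 5 FMTg libraries of a tissue Gdf15 ran with the score in ovary, heart, kidney and, weakly, small intestine, and against it in pancreas.

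Over the 10 FMTg mice, each averaged over its tissues after subtraction of the FMTg tissue mean, no relation passed, with Pearson r = 0.04 and Spearman rho = 0.04 (permutation p = 0.911 and 0.919, 100000 resamples, two-sided). Without the 2 mice of most extreme score, H and I, r was -0.42. Within the 6 low-numbered mice r was -0.67 (exact p = 0.161), and within the 4 others, too few for a test, it was 0.91. Without mouse C alone r was 0.46. With Mdm2 and Cdkn1a alone as the score r was 0.83 (permutation p = 0.00397), with the median of the targets 0.45 (permutation p = 0.186), and with both measures centred on Tg means 0.50 (permutation p = 0.136), these p values being unadjusted over the ways of scoring. The relation thus depends on which targets stand for p53 output, on the centring and on single mice. Over the 25 FMTg libraries centred on FMTg tissue means, 38 of the 56 targets had a positive r with Gdf15, with a median of 0.21. Centred within low- and high-numbered mice, 47 of the 56 were positive, with a median of 0.50. All genes had medians of -0.09 and -0.04 in these 2 centrings and 95th percentiles of 0.45 and 0.53. In the second, erythroid and neutrophil markers also had medians of 0.52, while kidney tubule and cardiomyocyte markers were at -0.34 and -0.41.

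**Figure D4:**
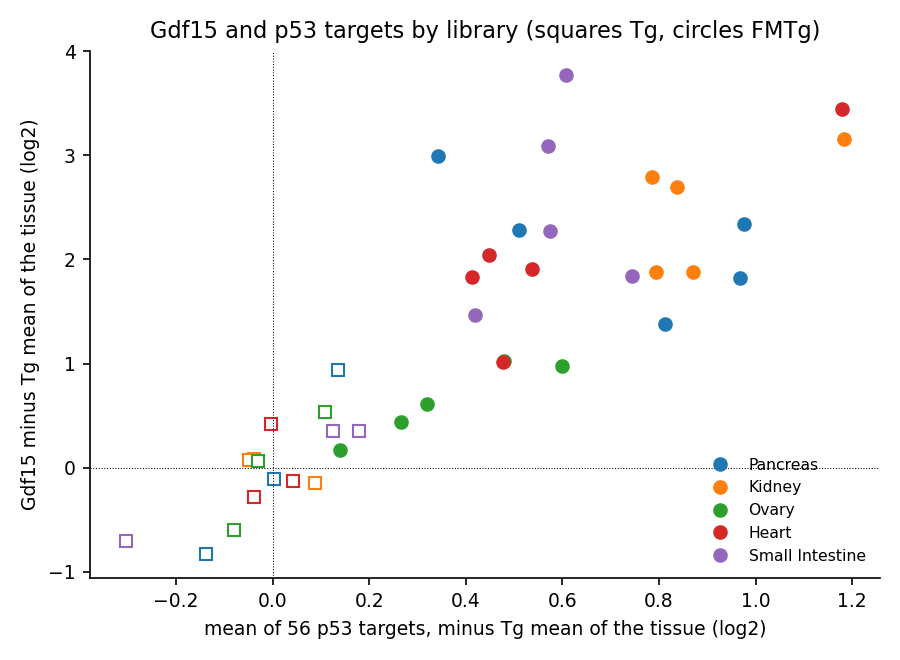
Gdf15 against the mean of 56 p53 targets in each library, both as differences from the Tg mean of the tissue (log2); squares are Tg and circles FMTg libraries, coloured by tissue. All FMTg libraries score above the Tg mean, the ovary libraries lie nearest the Tg libraries, and the pancreas library highest in Gdf15 on this scale (2.99) has the lowest pancreas score (0.34).

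The genes whose profile was most like that of Gdf15 over the 40 libraries, each value taken relative to the Tg mean of its tissue, were Phlda3 (r = 0.92), Bax (0.92), Zmat3 (0.90), Thyn1 (0.90), Sesn2 (0.89), Aaas (0.88), Mgmt (0.88), Aen (0.87), Nudcd2 (0.87) and Fbxw9 (0.87). Phlda3 restrains Akt signalling, Zmat3 binds RNA, Mgmt repairs alkylated DNA, Aen is a nuclease and Aaas is a nuclear pore protein. Of these, Phlda3, Bax, Zmat3, Sesn2 and Aen were on the target lists. The correlation takes in the step between genotypes, and within the 10 groups it was 0.51 to 0.79 for these genes. The median r was 0.80 for the 15 apoptosis targets, all positive, and 0.70 for the 12 arrest targets, but -0.11 for repair and metabolism and -0.10 for the secreted targets, where all 14531 genes had a median of -0.08 and a 95th percentile of 0.38.

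Within the 25 FMTg libraries alone, relative to FMTg means, the order changed. Klhl26, an adaptor of a ubiquitin ligase, led with r = 0.89, followed by Bbc3 (0.81), which encodes the apoptosis activator Puma, Trim11 (0.81), Sesn2 (0.81) and Pml (0.78). Klhl26 lies 152 kb from Gdf15 on the same chromosome (70450219 to 70476968). It rose in the pancreas by 1.45 (limma adjusted p = 0.0172) and in the kidney by 1.39 (limma adjusted p = 0.00771). It was not called by limma in the other tissues, at -0.002 in ovary, 0.19 in heart and 1.27 in small intestine. On the mean over tissues it was at 0.86 (limma adjusted p = 0.0041). Pml, in contrast, was called in no tissue by limma and was at 0.22 on the mean. These correlations share libraries and depth and are descriptions of the samples.

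The genes closest to Gdf15 on chromosome 8 were not called. Lrrc25, 7910 bases away, was at -0.71 to 0.51 and Pgpep1, 13979 bases away, at -0.35 to 0.64 (log2), neither called by limma in any tissue. Pgpep1 in the kidney (0.64 ± 0.16, limma adjusted p = 0.264) was the single case in which either had its FMTg libraries all above its Tg libraries.

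Known inputs to the Gdf15 gene were examined at the RNA level. None of 14 factors reported to act on it, Trp53 among them, was called by limma in any tissue or on the mean. Their median mean effect was 0.09. In single tissues 9 of 70 tests (12.9%) had an unadjusted limma p under 0.05, 3 of them in the kidney, against 6.33% for all genes. Voom called 0. Egr1, an immediate early factor, came nearest at 0.61 ± 0.16 on the mean (limma adjusted p = 0.0693), with 1.24 ± 0.28 in the kidney. Atf4, which is controlled mainly at translation, was at 0.29 ± 0.15, Ddit3 at 0.05 ± 0.16, Atf3 at 0.11 ± 0.31, Cebpb at -0.12 ± 0.28 and Jun at 0.41 ± 0.14. The others lay between -0.15 for Fos and 0.31 for Nfe2l2, with Hif1a at 0.26, Sp1 at 0.18, Klf4 at 0.05, Nr1h4 at 0.01 and Tfeb at -0.07.

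Targets of the integrated stress response were not called between genotypes. Of 20 members limma called 0 in every tissue, and 1 of the 100 tests had an unadjusted p under 0.05, against 6.33% of the tests of all genes, and voom called 0. Their medians ran from -0.05 in the kidney to 0.15 in the pancreas. Trib3, a pseudokinase induced by Atf4 and Ddit3, was at -0.35 ± 0.26 on the mean, Chac1, which degrades glutathione, at -0.04 ± 0.39, and Asns, the asparagine synthetase, at 0.05 ± 0.27. Over the 25 FMTg libraries their median r with Gdf15 was 0.34, and 18 of the 20 were positive. All genes had a median of -0.09 and a 95th percentile of 0.45, and the 56 p53 targets had a median of 0.21. Centred within low- and high-numbered mice, the median r was 0.30 and 16 of 20 were positive. There the 95th percentile of all genes was 0.53, and p53 targets had a median of 0.50 and erythroid and neutrophil markers 0.52. A link between these genes and Gdf15 was not tested. Of 10 unfolded protein response genes, the chaperone Calr alone passed on the mean (0.79 ± 0.18, limma adjusted p = 0.0212), the list's median being 0.37. In single tissues limma called 0, while 10 of 50 tests (20%) had an unadjusted p under 0.05, and voom called 0. The heart held 7 of these tests, where 998 of all 15769 genes tested reached that p. In the heart 6 of the 10 had every FMTg library above every Tg library, against 3.42% of all genes tested.

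Of the machinery that processes and receives Gdf15, none was called by limma in any tissue. The 7 proprotein convertases had a median mean effect of -0.25, with Furin at -0.34 ± 0.14 and Pcsk6 at 0.23 ± 0.14. Of their 34 tests 6 (17.6%) had an unadjusted limma p under 0.05, against 6.33% of the tests of all genes. Gfral was not analysed here. Its partner Ret was at -0.29 ± 0.32, and the related GDNF receptors were at -0.11 ± 0.28 for Gfra1, -0.12 ± 0.32 for Gfra2, -0.31 ± 0.34 for Gfra3 and -0.13 ± 0.35 for Gfra4. The ligands of those receptors were at -0.11 for Gdnf, 0.29 for Nrtn and -0.34 for Artn. Of 39 tests of this list 2 (5.13%) had an unadjusted limma p under 0.05, near the 6.33% of all genes. Gdf15 is not known to act on these peripheral tissues through Gfral, and the values describe their RNA only.

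Other ligands of the superfamily were not called. Of 25 ligands tested on the mean, limma called 0, with a median of 0.10. In single tissues 10 of 116 tests (8.62%) had an unadjusted limma p under 0.05, near the 6.33% of all genes. Tgfb1 was at 0.05 ± 0.18, Gdf11 at 0.44 ± 0.22, and the activin subunits at 0.12 ± 0.45 for Inhba and -0.62 ± 0.48 for Inhbb, which is also on the list of secreted targets. The 20 TGF-beta receptors and Smads had a median of -0.06 and 0 calls, with 7 of 100 tests (7%) at an unadjusted limma p under 0.05. For comparison with other circulating stress signals, Fgf21 was at 0.41 ± 0.64 and Lcn2 at -1.09 ± 0.53, and none of 14 such hormones was called on the mean. Inflammatory cytokines had a median of -0.43 over 13 tested on the mean, with Il6 at -0.85 ± 0.47 and Tnf at -0.50 ± 0.31, and limma called none. For the hormones 2 of 60 (3.33%) and for the cytokines 6 of 60 tests (10%) had an unadjusted limma p under 0.05, against 6.33% for all genes. Voom called 0 in all of these lists.

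**Figure D5:**
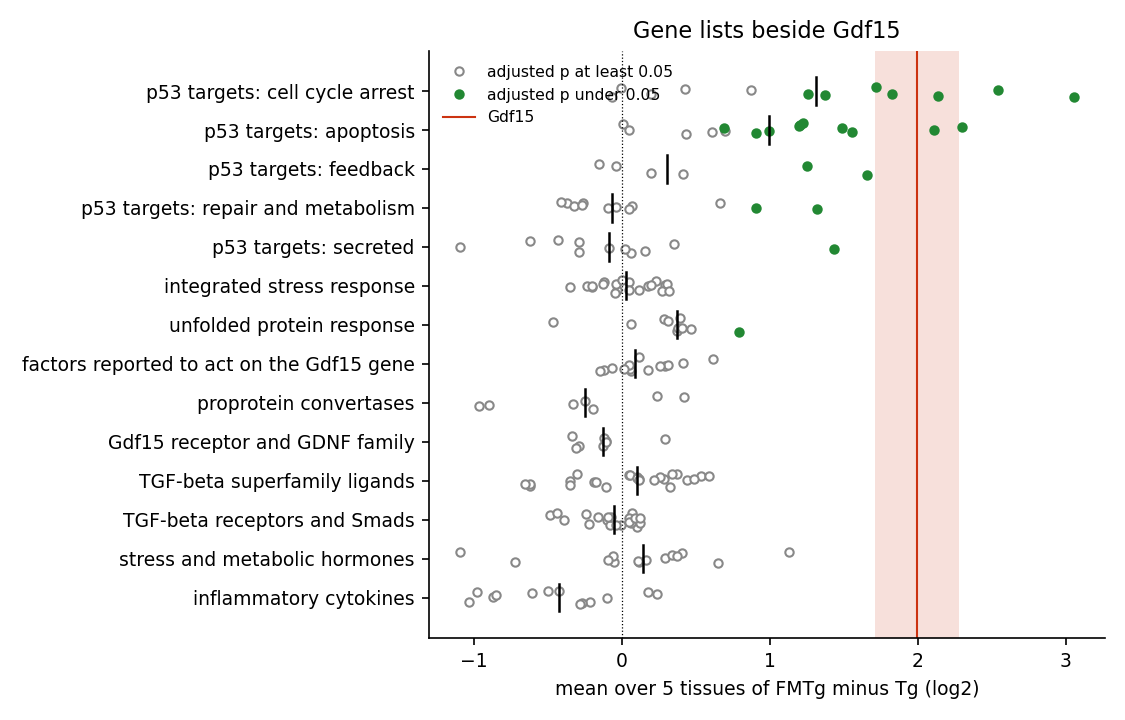
Mean over 5 tissues of FMTg minus Tg (log2) for the members of 14 gene lists (circles, filled where the limma adjusted p is under 0.05, black bars are list medians); the red line and band are Gdf15 ± SE (2.00 ± 0.28). Called members are in the p53 target lists, save for Calr in the unfolded protein response.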

How the data were processed

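RNA from flash-frozen tissue was sequenced in 40 libraries of 13 mice, per the labels. Per the submitters' processing notes, the tools were STAR 2.6.0b and DESeq2 and the build GRCm38. The read counter, annotation release, strand setting and gene filter are not given in the sources used here. The deposited values are log2 values after the authors' variance-stabilising transformation over all libraries. Inverting it gave whole reads for 100% of values (tolerance 0.01). Gene models are those of GENCODE M21, where 18017 of 18024 IDs matched.

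Each tissue was fitted with limma 3.58.1 in R 4.3.3 (genotype only, mean-variance trend) on genes whose mean in that tissue exceeded the lowest deposited value, 1.65, by 1 or more, with Benjamini-Hochberg adjustment over all genes tested and a threshold of 0.05. The model of all libraries used mouse as a random block (correlation 0.249). The procedure was tested on simulated data. No pair of libraries of a group agreed within sampling noise. Replicate numbers link different mice across genotypes, so the samples were treated as unpaired.

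The members and lists were chosen with earlier results of these data known. Named genes are Gdf15, Mdm2, Trp53 and Cdkn1a, the 10 and 5 genes most like Gdf15 over all and over FMTg libraries, all members of the receptor and factor lists, up to 6 members of largest mean effect and 4 of smallest p in each other list, and Inhba, Inhbb, Tgfb1 and Gdf11. Other genes named (the targets above Gdf15, its chromosomal neighbours, and list members given for their roles) were chosen after their values were seen. Alternatives covered filters, trend, library weights, quantile normalisation, voom, scaling, blocks and left-out libraries.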

Additional observations from a re-analysis of the deposited data

Results flagged for a closer look

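In the heart the 904 normalised reads of Gdf15 in FMTg replicate 2 stood apart from the other 4 FMTg libraries (162 to 339). Its gap to the nearest library was 0.76 of the group's range, above the critical 0.71 for 5 libraries. On the log2 scale the gap was 0.58 of the range and did not reach it. Of 10 such checks 1 passed, and chance passes about 1 in 20.

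The rise of Gdf15 differed between tissues in a pair of contrasts from the model of all libraries. Kidney minus ovary was 1.86 ± 0.59 (limma p adjusted over 10 pairs = 0.0315) and ovary minus small intestine was -1.69 ± 0.59 (0.0337). Over 11 alternatives the first ran from 1.34 to 2.09 and the second from -2.10 to -0.67, always in the same direction, and 6 and 8 of them missed the threshold.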

How the results depend on the processing

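The rise of Gdf15 in the kidney stayed past the threshold in all 20 alternatives run (limma adjusted p 0.0014 to 0.0411), and so did its mean effect over tissues in all 10. In the pancreas the call appeared with library weights (2.07) and in the model of all libraries (2.03), in the heart likewise (1.94 and 2.17), and in the small intestine in the model of all libraries (2.43). The ovary was called by limma under none. With 1 library left out, the log2 difference ran from 1.75 to 2.63 in the pancreas, 2.31 to 2.63 in the kidney, 0.35 to 0.91 in the ovary, 1.70 to 2.31 in the heart and 2.14 to 2.74 in the small intestine. With 1 replicate number left out, the mean effect ran from 1.76 to 2.16, and the adjusted p of the F test from 0.564 to 1.00.

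With the replicate block the differences were 1.85, 2.31, 0.73, 2.47 and 1.86 from pancreas to small intestine, and the block changed no call of these 5; numbers 4 and 5 occur in FMTg mice only, so the estimates are those without the low-numbered mice. Same-numbered libraries had correlations of -0.587 to 0.592. Differently numbered libraries were not set beside them, so whether same-numbered mice share anything beyond the label was not tested. In the model of all libraries the block gave a mean effect of 1.84. It ended both calls between tissues (1.58 and -1.13).

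Among Tg mice, pancreas minus kidney ran from 0.47 to 1.46 with 1 mouse left out, passing without replicate 2 (1.46). The ranges were 0.20 to 0.47 for kidney minus heart, 0.13 to 0.96 for heart minus ovary and 0.32 to 0.55 for ovary minus small intestine. The correlation of Gdf15 with the target score ran from -0.13 to 0.46 with 1 mouse left out, turned to -0.67 within the low-numbered mice and passed with Mdm2 and Cdkn1a alone (0.83). The called p53 targets in the heart went from 3 to 1 without the low-numbered mice. Scaling by total reads, size factors recomputed per tissue, the target counts without the low-numbered mice and the pairs without ovary Tg replicate 1 were chosen after seeing the data. Total-read scaling moved the median of all genes from -0.05 to -0.23 in the pancreas and from -0.05 to -0.15 in the kidney, and Gdf15 to 1.97 and 2.38. The causes of these shifts were not tested. Gdf15 had as few as 19 reads in a Tg library of the small intestine.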
